A study of Mus musculus with 28 samples.

Results

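The mouse microRNA miR-22 is described here through its 2 mature strands, miR-22-3p and miR-22-5p, in heart small RNA libraries. The strands were chosen by name, as the rows whose mature name was mmu-miR-22-3p or mmu-miR-22-5p. They are 2 of 1485 mature names in the count tables, and both are listed under a single hairpin, mir-22. Counts of miR-22-3p were above 0 in 28 of 28 libraries, and counts of miR-22-5p in 26 of 28.

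A microRNA is cut from a hairpin whose 5′ and 3′ arms can each give a mature strand, and the strand that is kept is loaded into an Argonaute protein. There, bases 2 to 8, the seed, pair with target messenger RNAs, which are then repressed. In the mouse heart, miR-22 is known as a highly expressed microRNA of cardiomyocytes, and mouse loss- and gain-of-function studies tie it to hypertrophic growth and the response to stress, with Hdac4 and Sirt1 among its described targets.

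Both mature strands are shown with the seed in capitals, since the seed sets which messages each could pair with, and the hairpin is shown with both strands in capitals, 5′ arm first. All 3 are RefSeq entries in build GRCm38.p6, printed 5′ to 3′.
miR-22-3p: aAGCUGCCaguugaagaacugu
miR-22-5p: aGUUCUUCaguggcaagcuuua
mir-22 hairpin: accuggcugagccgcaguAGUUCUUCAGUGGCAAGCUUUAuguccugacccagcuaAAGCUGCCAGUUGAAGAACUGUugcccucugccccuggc

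The hairpin spans 95 bases on the plus strand at chr11:75463716-75463810, with the 5p strand at chr11:75463734-75463755 and the 3p strand at chr11:75463772-75463793. In the GENCODE M21 annotation it lies within an exon of the noncoding host gene Mir22hg, at chr11:75463693-75463857 in transcript Mir22hg-202, and the same interval is an exon of the Tlcd2-203 transcript. RNAfold gave a minimum free energy of -41.90 kcal/mol, with 19 base pairs between the 2 strands, a longest unbroken stretch of 10 pairs and 16 bases in the loop between them. The 2 seeds differ, and among 1679 listed mouse names with a RefSeq mature sequence no other shares either of them.

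The samples were left ventricular wall of the remote zone, the muscle away from the infarct, of the mouse stock Hsd:ICR(CD-1), which is outbred and for which the labels name no allele. LAD ligation, which closes the left anterior descending artery, gave a myocardial infarction (MI) on postnatal day 1 (P1) or 7 (P7), and sham animals had an operation without it. The neonatal mouse heart is known to regrow muscle after injury in the first days of life and to lose most of that ability within the first week, which is the setting of the comparison between P1 and P7. With a follow-up of 3 days, 4 libraries each came from MI P1, sham P1, MI P7 and sham P7 hearts. These mice were 4 days old after P1 and 10 days old after P7 operations. With a follow-up of 21 days, each of the same groups had 3 libraries, from mice 22 and 28 days old. The 21-day libraries are marked with lane 3 or 5. Those of lane 5 were MI P1 replicates 2 and 3, MI P7 replicate 2 and sham P7 replicate 1. All sham P1 libraries were of lane 3, so lane and operation partly coincide at P1. Young stayed with their litter and mother. The kit was Qiagen's QIAseq miRNA kit at 3 days and Illumina's TruSeq Small RNA kit at 21 days, so each follow-up is described on its own and no level is compared between them. Replicate numbers only name libraries, and the labels do not state that each came from its own mouse, so the p-values cover only the spread between the sequenced samples, which may be technical. In bulk tissue, fewer cells of a type and less RNA per cell cannot be told apart.

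Library totals, taken as 1 count per mature name, were 0.858 to 8.90 M reads at 3 days and 14.9 to 21.5 M reads at 21 days. All 5 cardiac muscle marker miRNAs were above 0 in every group. At 3 days a principal component with 71.2% of the variance put the 4 MI P1 libraries and sham P1 replicates 1 and 2 (sample titles with code 1078) on one side. Sham P1 replicates 3 and 4 (code 1103) and all 8 P7 libraries were on the other. Results of miR-22 that rest on sham P1 are therefore also given without each of these pairs. At 21 days MI P7 replicates 1 and 3 stood at the far end of the first component, which held 32.3% of the variance. Title codes are nested in the groups, so whatever they mark cannot be told apart from the group.

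In the 3-day libraries it held 0.0210% to 0.117% of counts, with a mean of 0.0725% ± 0.0279 (SD, n = 16), and its mean share ranked 81. The names just above it were miR-382-5p, miR-208a-3p and miR-411-5p, with 0.0808%, 0.0780% and 0.0745%. Those just below were miR-30b-5p, miR-672-5p and miR-210-3p, with 0.0725%, 0.0711% and 0.0676%. At the top were miR-125b-5p with 14.3% and miR-133a-3p, a muscle miRNA, with 13.7%. The label "abundant" thus goes against the 3-day counts. The other strand, miR-22-5p, had a mean share of 0.000978% and ranked 356.

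In the 21-day libraries miR-22-3p held a mean of 13.3% ± 2.69 of counts (SD, n = 12), and its mean share ranked 1. It was the most counted miRNA in 11 of 12 libraries and ranked 6 in MI P7 replicate 3. There it had 5.20% of counts, against 12.8% to 15.8% in the other 11. The next names were miR-133a-3p with 10.6%, miR-143-3p, known from smooth muscle, with 6.64%, and miR-378a-3p, known from mitochondrial metabolism in muscle, with 6.10%. The strand miR-22-5p held 0.00879% and ranked 158. Ranks compare counts within a kit, not molecules.

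**Figure D1:**
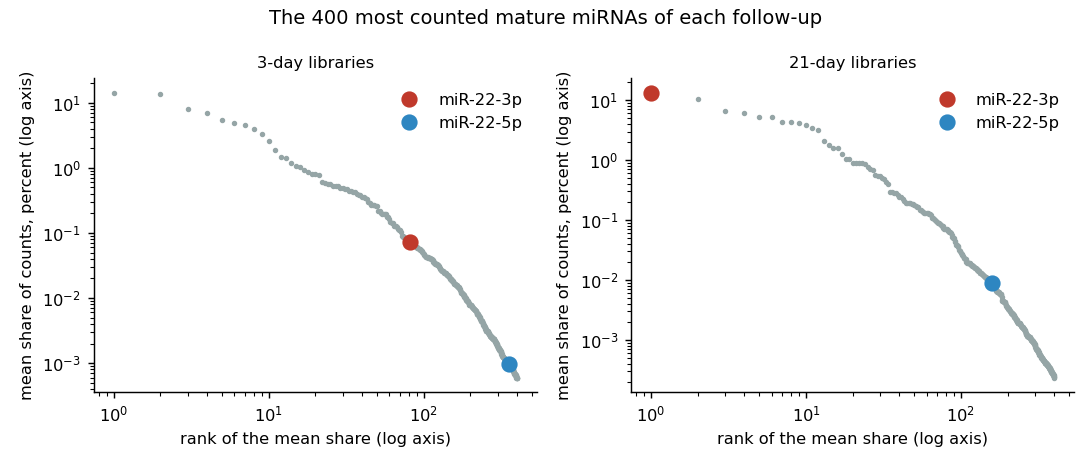
Mean share of counts (percent, log axis) against the rank of that mean (log axis) for the 400 most counted mature miRNAs, over the 16 libraries at 3 days (left) and the 12 at 21 days (right). The 3p strand sits at rank 81 on the left and at rank 1 on the right; the follow-ups used different kits and their levels are not compared.

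At 3 days after the operation, miR-22-3p did not differ between any of the groups beyond their spread. Levels are CPM, the counts scaled to a common library size after TMM, edgeR's correction for library composition. MI P1 libraries had 678, 975, 746 and 771 CPM, against 639.9, 887, 288 and 541 CPM in sham P1 libraries. MI P7 libraries had 614, 733, 1082 and 805 CPM, against 768, 284, 449.9 and 1028 CPM in sham P7 libraries. The groups overlapped in every pair, and the lowest values were those of sham P1 replicate 3 and sham P7 replicate 2, with 299 and 226 reads.

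Ordered by mean, MI P7 had 808 ± 199 CPM, MI P1 792 ± 128 CPM, sham P7 633 ± 331 CPM and sham P1 589 ± 248 CPM (SD, n = 4 each). No neighbours in that order differed beyond their spread. By edgeR's quasi-likelihood test, the log2 fold change of miR-22-3p in MI against sham hearts was 0.43 ± 0.40 (SE) at P1, with a Benjamini-Hochberg adjusted p of 0.497. In the same test 82 of 446 names were called at P1, or 18.4%. The log2 fold change of miR-22-3p in MI against sham hearts at P7 was 0.35 ± 0.40 (SE), with an edgeR adjusted p of 0.762, where 25 of 446 names were called, or 5.61%. The difference between these MI effects, P7 minus P1, was -0.07 ± 0.57 (SE) with an edgeR adjusted p of 0.956. No name was called for that difference (0%), 71 had an unadjusted p under 0.05, DESeq2 called 6 and limma-voom 0. Between the ages, miR-22-3p changed by 0.10 ± 0.40 (SE, log2) in sham P7 against sham P1 and by 0.03 ± 0.40 (SE, log2) in MI P7 against MI P1, with edgeR adjusted p of 0.875 and 0.950. In those comparisons 22% and 62.6% of the 446 names were called, and the medians over all names were -0.53 and -0.13. Without the code 1103 libraries the log2 fold change of miR-22-3p in MI against sham hearts at P1 was -0.0052, so its direction rested on them, and without code 1078 it was 0.72 with an edgeR adjusted p of 0.126. The difference of the MI effects was 0.35 without code 1103 and -0.39 without code 1078, and sham P7 against sham P1 gave -0.18 without code 1103 and 0.596 without code 1078, with edgeR adjusted p of 0.367 to 0.817.

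The strand miR-22-5p was rare at 3 days, and 8 of 16 libraries had under 10 reads of it. MI P1 libraries had 102, 235, 76 and 99 reads, against 38, 109, 0 and 5 reads in sham P1 libraries. MI P7 libraries had 6, 2, 3 and 10 reads, against 11, 0, 7 and 6 reads in sham P7 libraries. The 2 zeros allow up to 2.89 CPM in sham P1 replicate 3 and 3.78 CPM in sham P7 replicate 2, taking 3 counts as the limit.

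In CPM, MI P1 libraries had 17.0, 21.9, 15.5 and 20.8, against 8.86, 20.5, 0 and 2.69 in sham P1 libraries. The 2 high sham P1 values are the code 1078 libraries, and the higher of them lies within the MI P1 range. MI P7 libraries had 6.92, 1.71, 2.197 and 8.54 CPM, against 9.32, 0, 7.68 and 3.51 CPM in sham P7 libraries, and these ranges overlapped. The groups averaged 18.78 ± 3.07 CPM in MI P1, 8.001 ± 9.10 in sham P1, 4.84 ± 3.41 in MI P7 and 5.13 ± 4.20 in sham P7 (SD, n = 4 each).

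In MI P7 hearts miR-22-5p had a lower range than in MI P1 hearts, with every MI P7 library at 8.54 CPM or below and every MI P1 library at 15.5 CPM or above. The log2 fold change was -1.98 ± 0.86 (SE), and the edgeR adjusted p of 0.0538 missed the threshold of 0.05. Over all names, 174 of 446 (39%) were lower in this way with no overlap, and 279 of 446 (62.6%) were called in either direction, so a separation of these groups was common among miRNAs. Of 9 other settings, 8 took miR-22-5p past the threshold, with log2 fold changes of -1.73 to -2.64 and adjusted p of 0.00178 to 0.0459. Leaving out 1 library at a time gave adjusted p of 0.0287 to 0.159. Library totals also differed, at 0.858 to 1.27 M reads in MI P7 and 3.86 to 8.90 M reads in MI P1. Summed marker levels of some other cell types also separated with no overlap, and no marker of these was at 0. Those of cardiac muscle, leukocyte, skeletal muscle and liver markers overlapped between MI P7 and MI P1. The 2 endothelial markers summed to 9771 to 21411 CPM in MI P7 and 83561 to 103944 CPM in MI P1. The 2 smooth muscle and mural markers summed to 5156 to 7240 CPM in MI P7 and 19138 to 24759 CPM in MI P1. Of these, miR-143-3p had 1948 to 3179 CPM in MI P7 and 16582 to 21709 CPM in MI P1. The rest of each sum, miR-145a-5p, went the other way and was higher in every MI P7 library than in every MI P1 library. The 3 fibroblast markers summed to 4427 to 6147 CPM in MI P7 and 10847 to 12686 CPM in MI P1. Most of that fibroblast sum was miR-199a-3p, with 3106 to 4756 CPM in MI P7 and 8958 to 10443 CPM in MI P1. Its partner strand miR-199a-5p was also lower, with 1004 to 1369 CPM in MI P7 and 1826 to 2306 CPM in MI P1. The fibroblast marker miR-214-3p went the other way, with 170.7 to 317.4 CPM in MI P7 and 63.28 to 131.6 CPM in MI P1. The 3 erythroid markers summed to 7545 to 12880 CPM in MI P7 and 874 to 1440 CPM in MI P1. Most of that erythroid sum was miR-486a-5p, with 7492 to 12836 CPM in MI P7 and 580.5 to 1305 CPM in MI P1. The erythroid marker miR-451a went the other way, with 23.08 to 64.87 CPM in MI P7 and 124.5 to 260.8 CPM in MI P1. The part of these markers in the result was not tested.

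The other comparisons of miR-22-5p at 3 days did not pass. MI against sham hearts gave a log2 fold change of 1.12 ± 0.78 (SE) at P1 with an edgeR adjusted p of 0.324. At P7 it was -0.13 ± 0.93 (SE), with an edgeR adjusted p of 0.963. The difference of the MI effects was -1.25 ± 1.21 (SE), with an edgeR adjusted p of 0.604, and sham P7 against sham P1 gave -0.72 ± 0.85 (SE), with an edgeR adjusted p of 0.558. Those that use sham P1 depended on which of its libraries were kept. Without the code 1103 libraries the MI effect at P1 was 0.30 and the difference of the MI effects -0.497, with edgeR adjusted p of 0.82 and 0.827. Without the code 1078 libraries the MI effect at P1 was 3.28 with an edgeR adjusted p of 0.00203, and the difference of the MI effects was -3.49 with an edgeR adjusted p of 0.0109. Without code 1078 the sham age difference turned to 1.65, and without code 1103 it was -1.37 with an edgeR adjusted p of 0.0475.

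**Figure D2:**
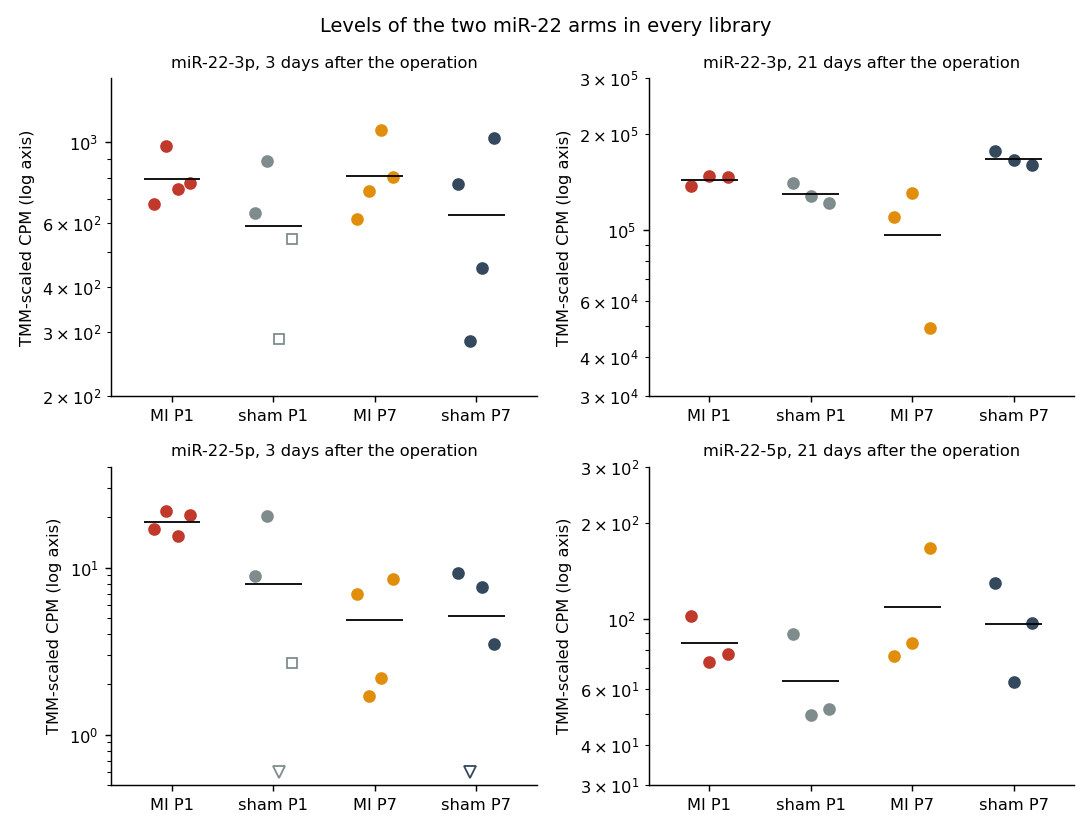
TMM-scaled CPM (log axis) of miR-22-3p (top) and miR-22-5p (bottom) in each library, at 3 days (left) and 21 days (right), with MI to the left of its sham. Points are libraries, lines are group means, open squares are the sham P1 libraries of code 1103, and open triangles mark 2 libraries with 0 reads, drawn at the foot of the axis. At 21 days MI P7 replicate 3 sits lowest for the 3p strand and highest for the 5p strand.

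At 21 days miR-22-3p varied little in 3 of the 4 groups. MI P1 libraries had 137225, 147571 and 146579 CPM, against 140179, 127845 and 121415 CPM in sham P1 libraries, and the ranges overlapped. MI P7 libraries had 110104, 131269 and 49070.5 CPM, against 176714, 166597 and 160342 CPM in sham P7 libraries. All 3 MI P7 libraries lay below all sham P7 libraries, and replicate 3 was the lowest of the follow-up.

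Ordered by mean, sham P7 had 167884 ± 8261 CPM, MI P1 143792 ± 5709 CPM, sham P1 129813 ± 9535 CPM and MI P7 96815 ± 42681 CPM (SD, n = 3 each). The neighbours MI P1 and sham P1 overlapped. So did sham P1 and MI P7, while sham P7 lay above MI P1 with no overlap. The share of all names that separated like this was not counted for that pair. In MI P7 against sham P7, 18.7% of 598 names were lower with no overlap. Sham P7 with MI P1, and MI P7 with sham P1, differ in both operation and age and were not tested against each other. The SD of log2 CPM of miR-22-3p was 0.06 in MI P1, 0.10 in sham P1 and 0.07 in sham P7, against group medians of 0.22, 0.20 and 0.21 over 598 names. In MI P7 it was 0.76, where the median was 0.45.

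In MI P7 against sham P7 hearts at 21 days the log2 fold change of miR-22-3p was -0.79 ± 0.27 (SE), and its edgeR adjusted p of 0.0507 was just over the threshold. In that comparison 132 of 598 names were called, or 22.1%, and 112 of 598 (18.7%) were lower with no overlap. Over the other settings the log2 fold change was -0.42 to -0.98 and the adjusted p 0.0103 to 0.273. DESeq2, limma-voom, a lane term and a fit with no filter each gave an adjusted p under 0.05. Without MI P7 replicate 3 the log2 fold change was -0.42, with an edgeR adjusted p of 0.052, and without MI P7 replicate 2 it was -1.05 with an edgeR adjusted p of 0.0133. Shares of the library before TMM scaling were closer together, at 14.2%, 14.4% and 5.20% in MI P7 against 14.8%, 15.8% and 14.6% in sham P7. Scaling to the total count gave -0.42 with an edgeR adjusted p of 0.27, and moved the median log2 fold change of all names to 0.38, against 0.03 under TMM.

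The summed level of the 5 cardiac muscle markers moved the same way, at 55970 to 92571 CPM in MI P7 and 133851 to 157386 CPM in sham P7, with none at 0. Most of that sum was miR-133a-3p, with 48187 to 85688 CPM in MI P7 and 124969 to 147666 CPM in sham P7. Of the other markers, miR-1a-3p, miR-208a-3p and miR-499-5p had log2 fold changes of -0.21, -0.43 and -0.32. That of miR-208b-3p was 0.10, and none of these other markers was called. The 3 fibroblast markers summed to 10615 to 22958 CPM in MI P7 and 5098 to 6120 CPM in sham P7, with none at 0. The 2 endothelial markers summed to 31860 to 50266 CPM in MI P7 and 51937 to 58307 CPM in sham P7, with neither at 0. Their part in the result was not tested.

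At P1 the log2 fold change of miR-22-3p in MI against sham hearts was 0.15 ± 0.27 (SE), with an edgeR adjusted p of 0.959, and 3 of 598 names (0.502%) were called. The difference of the MI effects, P7 minus P1, was -0.94 ± 0.38 (SE), with an edgeR adjusted p of 0.139, where 59 of 598 names were called (9.87%). Without MI P7 replicate 2 it was -1.20 with an edgeR adjusted p of 0.0364, and without MI P7 replicate 3 it was -0.58 with an edgeR adjusted p of 0.0633. MI P7 against MI P1, which uses the same MI P7 libraries, gave -0.57 ± 0.27 (SE), with an edgeR adjusted p of 0.165, where 81 names were called (13.5%) and 100 (16.7%) were lower with no overlap, miR-22-3p among them. Without MI P7 replicate 2 the value was -0.84 with an edgeR adjusted p of 0.0414, and without MI P7 replicate 3 it was -0.20 with an edgeR adjusted p of 0.382. Sham P7 against sham P1 gave 0.37 ± 0.27 (SE), with an edgeR adjusted p of 0.649. The 2 sham groups did not overlap, which held upward for 85 of 598 names (14.2%), while edgeR called none (0%), 72 had an unadjusted p under 0.05, DESeq2 called 14 and limma-voom 0.

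The 5p strand at 21 days was counted 1003 to 3418 times per library. MI P1 libraries had 102, 72.9 and 77.3 CPM, against 89.3, 49.9 and 51.8 CPM in sham P1 libraries. MI P7 libraries had 76.1, 83.8 and 167 CPM, against 129, 63.1 and 97.0 CPM in sham P7 libraries. Ranges overlapped in both pairs, and the highest value was that of MI P7 replicate 3. The groups averaged 84.0 ± 15.6 CPM in MI P1, 63.7 ± 22.2 in sham P1, 109 ± 50.5 in MI P7 and 96.5 ± 33.1 in sham P7 (SD, n = 3 each). No comparison passed: the log2 fold changes in MI against sham hearts were 0.40 ± 0.34 (SE) at P1 and 0.18 ± 0.34 (SE) at P7, with edgeR adjusted p of 0.817 and 0.725. Their difference was -0.22 with an edgeR adjusted p of 0.794. P7 against P1 gave 0.60 in sham and 0.38 in MI hearts, with edgeR adjusted p of 0.518 and 0.493.

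**Figure D3:**
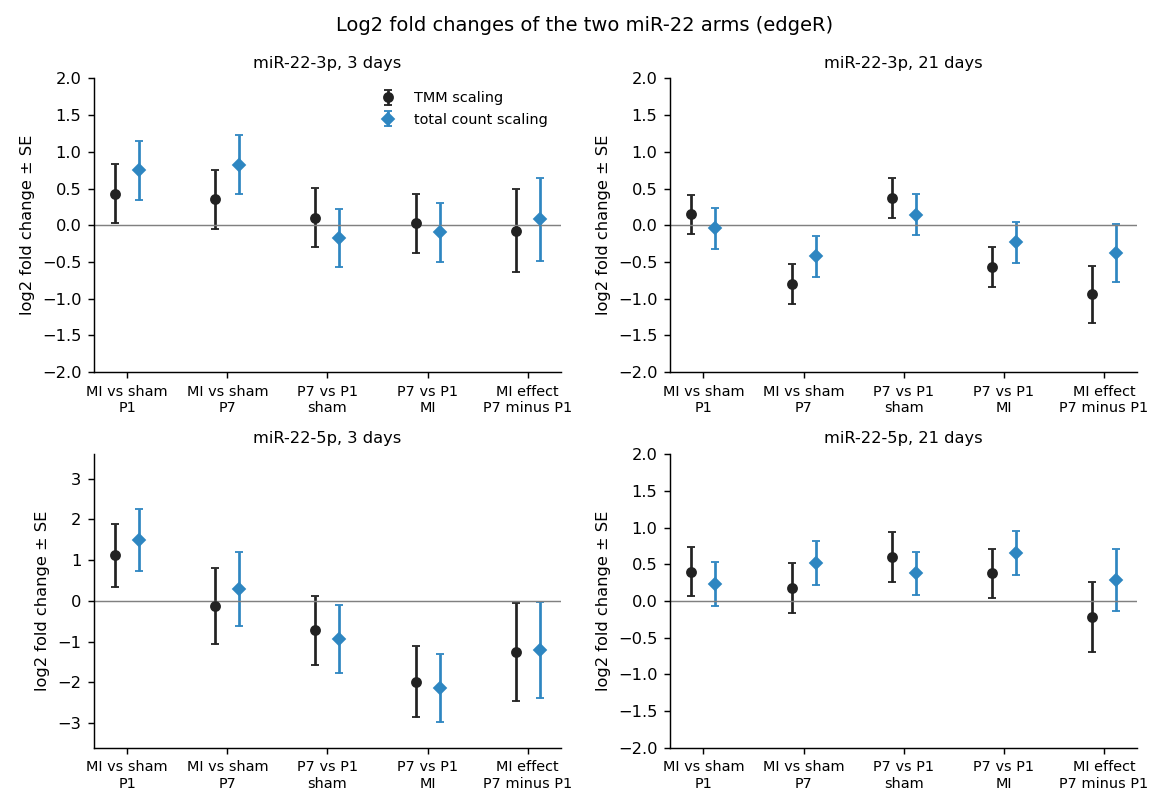
Log2 fold changes with standard errors of miR-22-3p (top) and miR-22-5p (bottom) in 5 comparisons, at 3 days (left) and 21 days (right), from edgeR with TMM scaling (circles) and with scaling to the total count (diamonds). For the 3p strand in MI against sham hearts at P7 and 21 days the values are -0.79 and -0.42; the axis of the lower left panel is wider than the others.

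The strand ratio of miR-22 was set beside that of hairpins with at least 100 CPM on average from each strand. It is given as log2 of 3p over 5p counts, with 0.5 added to each. Its mean was 6.80 over the 16 libraries at 3 days, where 1 of 36 other hairpins had a higher mean. At 21 days it was 10.6, and the other 28 hairpins reached at most 8.50. That minimum leaves out hairpins with a rare second strand, which can have larger ratios, and miR-22-5p itself did not reach it, so no rank among all hairpins follows.

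Within the 3-day libraries the 5p strand made up 2.44%, 2.198%, 2.03% and 2.63% of both strands in MI P1, against 1.36%, 2.26%, 0% and 0.495% in sham P1. It made up 1.12%, 0.233%, 0.203% and 1.05% in MI P7, against 1.20%, 0%, 1.68% and 0.341% in sham P7. The 95% exact intervals of MI P1 lie within 1.603% to 3.19%. The P7 intervals differ in width: that of sham P7 replicate 3 runs from 0.677% to 3.43%, while those of MI P7 replicates 2 and 3 and sham P7 replicate 4 end at 0.839%, 0.591% and 0.740%, below all MI P1 intervals. The intervals cover counting error only.

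The log2 strand ratio averaged 7.497 ± 1.25 in MI P7 and 5.39 ± 0.17 in MI P1 hearts (SD, n = 4 each), with no overlap. The two-sided exact permutation p was 0.0286, the smallest that 4 against 4 allows, and 0.286 after adjustment over 20 tests of ratios, so it did not pass. In the same libraries 8 of 36 other hairpins had a larger upward difference than the 2.10 of mir-22. In either direction 17 of the 36 differed by more, and their median size of difference was 1.83, so such shifts were common. MI P1 against sham P1 gave 5.39 ± 0.17 and 7.08 ± 1.67 (SD, n = 4 each), with an exact permutation p of 0.0857. That difference of -1.69 was -2.98 without code 1078 and -0.40 without code 1103, with exact permutation p of 0.0667, the smallest that 4 against 2 allows, and 0.267. MI P7 against sham P7 gave 7.497 ± 1.25 and 7.24 ± 1.44 (SD, n = 4 each), with an exact permutation p of 0.657.

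At 21 days there were 1347 to 2639 reads of miR-22-3p per read of miR-22-5p in 11 libraries and 294 in MI P7 replicate 3. The log2 ratio was 10.5, 10.6 and 8.20 in MI P7 libraries, against 10.4, 11.4 and 10.7 in sham P7 libraries. It was 10.4, 10.98 and 10.9 in MI P1 libraries, against 10.6, 11.3 and 11.2 in sham P1 libraries. All libraries but MI P7 replicate 3 lay within 1 unit of each other. MI P7 against sham P7 averaged 9.77 ± 1.36 and 10.8 ± 0.49 (SD, n = 3 each), with an exact permutation p of 0.4, where 0.1 is the smallest p that 3 against 3 allows; the difference was -0.27 without MI P7 replicate 3 and -1.05 with it. MI P1 against sham P1 averaged 10.8 ± 0.32 and 11.04 ± 0.38 (SD, n = 3 each), also with an exact permutation p of 0.4.

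**Figure D4:**
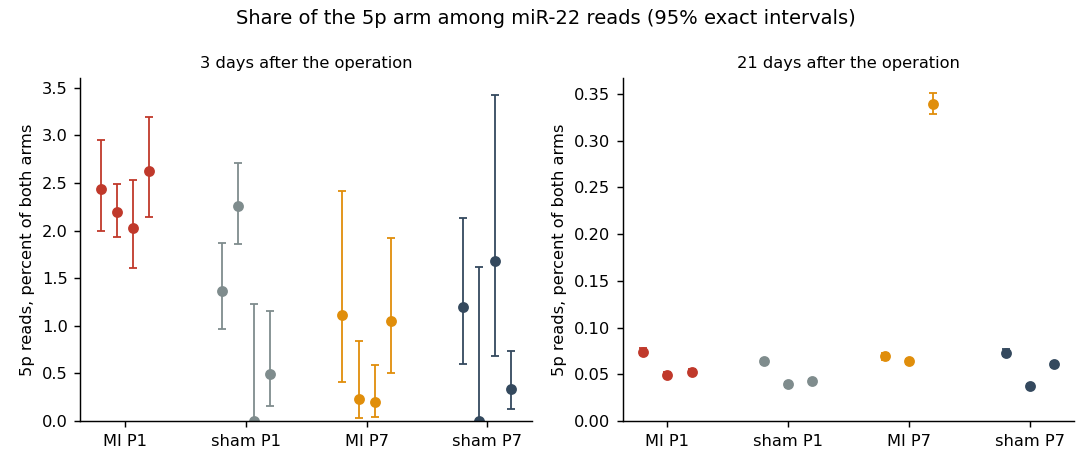
Reads of miR-22-5p as a percent of both strands in each library, at 3 days (left) and 21 days (right), with 95% exact binomial intervals that cover counting error only. MI P1 libraries at 3 days lie at 2.03% to 2.63%; at 21 days MI P7 replicate 3 stands at 0.339%, above the 0.0379% to 0.0742% of the other libraries. The vertical scales differ.

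MI P7 replicate 3 at 21 days was set against the mean of MI P7 replicates 1 and 2. Its log2 strand ratio was 2.36 lower for mir-22, and the differences of the other 28 hairpins ran from -1.94 to 1.36. The level of miR-22-3p was 1.29 lower on the log2 scale, and 31 of 598 names were lower still, while miR-22-5p was 1.06 higher, with 62 names higher still. Both strands thus contributed to the ratio in that library. In it, the muscle miRNA miR-133a-3p differed by 0.03 on the log2 scale, miR-143-3p by 1.08, and the erythroid miR-451a by 1.497. This library was chosen after its values were seen, and these are values with no test.

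**Figure D5:**
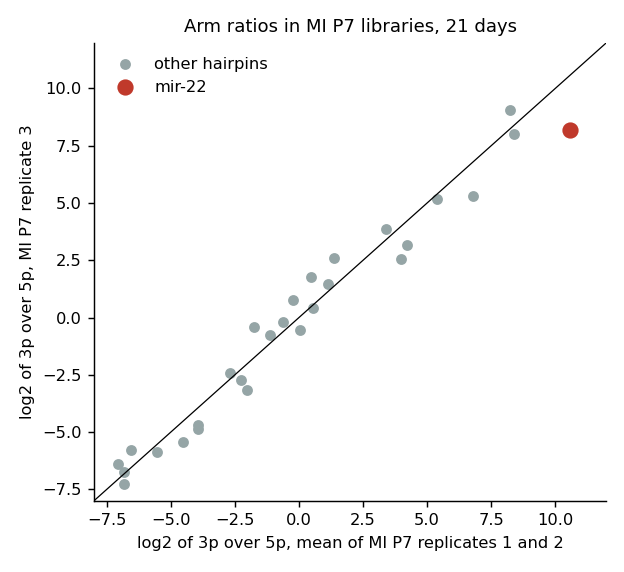
Log2 of 3p over 5p counts in MI P7 replicate 3 (vertical) against the mean of MI P7 replicates 1 and 2 (horizontal) at 21 days, for mir-22 and 28 other hairpins. The line marks equal values, and mir-22 lies 2.36 below it.

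Against other cardiac miRNAs, the level of miR-22-3p was set beside the mean log2 level of miR-1a-3p, miR-133a-3p, miR-208a-3p and miR-499-5p, which are made in cardiomyocytes. At 3 days this difference was -2.58 ± 0.36 in MI P7 and -3.59 ± 0.62 in sham P7 hearts (SD, n = 4 each), with a two-sided exact permutation p of 0.0857. It was -3.33 ± 0.16 in MI P1 and -3.03 ± 1.28 in sham P1 hearts (SD, n = 4 each), with an exact permutation p of 0.686; the difference was -1.34 without code 1078 and 0.75 without code 1103. MI P7 lay above MI P1 by 0.74 with no overlap, with an exact permutation p of 0.0286 and an adjusted p of 0.286. With miR-133a-3p alone that difference turned to -1.43, so its direction depends on which cardiac miRNAs are used. At 21 days it was 4.66 ± 1.13 in MI P7 and 5.01 ± 0.07 in sham P7 hearts (SD, n = 3 each), with an exact permutation p of 0.9. There it was 5.05 ± 0.23 in MI P1 and 4.74 ± 0.08 in sham P1 hearts (SD, n = 3 each), with an exact permutation p of 0.2. 

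Lists of heart miRNAs give a setting for these values. Of 7 striated muscle miRNAs, 3 fell and 0 rose in MI P7 against sham P7 hearts at 21 days. Over all names 22.1% were called in either direction, and 53 of 598 fell. The median log2 fold change of the 7 was -0.43, against 0.03 over all names. miR-133a-3p averaged 66440 ± 18771 CPM in MI P7 and 133590 ± 12293 CPM in sham P7 hearts (SD, n = 3 each), and fell by 1.01 on the log2 scale with an edgeR adjusted p of 0.00844. miR-378a-3p averaged 39304 ± 11545 CPM in MI P7 and 74816 ± 9669 CPM in sham P7 hearts (SD, n = 3 each), and fell by 0.93 on the log2 scale with an edgeR adjusted p of 0.0110. The third was miR-133a-5p, the partner strand of miR-133a-3p. At P1 and 21 days, where 0.502% of all names were called, none of the 7 was, and the log2 fold changes of miR-133a-3p and miR-378a-3p were 0.08 and 0.28.

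Of 10 miRNAs associated with hypertrophy and stress, 5 rose and 0 fell in MI P7 against sham P7 hearts at 21 days. There 79 of 598 names rose. The median log2 fold change of the 10 was 1.03, against 0.03 over all names. Both strands of miR-21a were among the 5. miR-21a-5p, known from cardiac fibroblasts, averaged 15122 ± 8661 CPM in MI P7 and 5378 ± 487 CPM in sham P7 hearts (SD, n = 3 each), and the log2 fold change was 1.49 with an edgeR adjusted p of 0.00844. miR-199a-5p averaged 1423 ± 648 CPM in MI P7 and 333 ± 42.7 CPM in sham P7 hearts (SD, n = 3 each), with a log2 fold change of 2.10 and an edgeR adjusted p of 0.00312. miR-23a-3p had a log2 fold change of 0.43 with an edgeR adjusted p of 0.141. At P1 and 21 days none of the 10 was called either (0.502% of all names). At 3 days 1 striated muscle miRNA, miR-133a-3p, fell in MI P1 against sham P1 hearts, where 18.4% of all names were called. It had 46429 to 65838 CPM in MI P1, against 55672 and 61268 CPM in the sham P1 libraries of code 1078 and 224359 and 250419 CPM in those of code 1103, so the difference lay between MI P1 and code 1103. The count of called names in that comparison ran from 0 to 348 over the settings tried. In MI P7 against sham P7 hearts at 3 days, where 5.61% of all names were called, 3 of the 10 hypertrophy and stress miRNAs rose and none of the 7 striated muscle miRNAs was called.

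The genomic neighbourhood of miR-22 within 1 Mb holds the RefSeq entries Mir6926, Mir212, Mir132 and Mir3971, of which Mir132, 290 kb before it, and Mir3971, 87.6 kb after it, are the nearest on each side. None of the 4 tested mature names from these hairpins was called between MI and sham hearts at 21 days, where 22.1% of all names were called at P7 and 0.502% at P1. miR-132-3p, which with miR-212 drives cardiomyocyte growth in mice, had a log2 fold change of 0.07 in MI P7 against sham P7 hearts with an edgeR adjusted p of 0.814. At 3 days 1 of 3 tested names, miR-212-3p, rose in MI P7 hearts, by 2.52 on the log2 scale with an edgeR adjusted p of 0.0257, beside 5.61% of all names called. In that comparison miR-132-3p had a log2 fold change of 1.58 with an edgeR adjusted p of 0.0567.

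The miRNAs whose levels ran most like miR-22-3p were ranked by Spearman's rho of log2 CPM over all libraries of a follow-up, among names with at least 100 CPM on average. These values describe 16 or 12 libraries that share groups, scaling and depth. At 3 days the highest of 183 names were miR-23a-3p with a rho of 0.65, miR-19b-3p with 0.64, miR-99a-5p with 0.63, miR-29c-3p with 0.61 and miR-146b-5p with 0.61. The lowest were miR-298-5p with -0.75, miR-483-5p with -0.75 and miR-296-3p with -0.72. At 21 days the highest of 153 names were miR-149-5p with 0.90, miR-150-5p and miR-30d-5p with 0.86 each, miR-30e-5p with 0.85 and miR-486a-3p with 0.83. The lowest were miR-214-3p with -0.91, miR-199a-5p with -0.85 and miR-152-3p with -0.85.

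The 5p strand had other companions. Its highest rho were with miR-99a-5p (0.86), miR-30b-5p (0.86) and miR-208b-3p (0.84) at 3 days, and with miR-101a-3p (0.80), miR-101b-3p (0.79) and miR-126a-5p (0.75) at 21 days. The rho between the 2 strands of miR-22 was 0.45 over 16 libraries at 3 days and 0.10 over 12 libraries at 21 days.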

How the data were processed

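The data are small RNA libraries of 28 samples of left ventricle in 8 groups; 100 ng of TRIzol-isolated RNA entered each library, per the labels' protocols. The authors deposited whole-number counts for each hairpin with its mature miRNA, not normalized. Bowtie2 2.2.2, edgeR and GRCm38 are named in the submitters' processing notes; how reads were trimmed, counted, annotated or collapsed by molecular identifier is not given in the sources used here. Per mature name the highest count over its hairpins was kept, since the same reads may be listed under several hairpins.

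From the counts, TMM-scaled CPM were computed and each follow-up was fitted alone with all 4 groups, unpaired, by edgeR 4.0.16 (R 4.3.3) with its robust quasi-likelihood F test. The default filterByExpr left 446 of 1313 names at 3 days and 598 of 1367 at 21 days, and Benjamini-Hochberg adjustment ran over all of them, with a threshold of 0.05. The biological coefficient of variation was 0.545 at 3 days and 0.25 at 21 days. Ratios were tested by two-sided exact permutation in Python 3.11.15. SciPy 1.17.1 gave the binomial intervals and Spearman's rho, and the hairpin was folded with ViennaRNA 2.7.2. Scripts were tested on simulated data. DESeq2 1.42.0, limma 3.58.1 (voom) and other scalings, filters and left-out libraries were alternatives. Since the replicate numbers at 3 days are in accession order, no block was fitted there.

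The rule for members uses names alone, but the members and lists were picked with earlier results of these data known. Named were both strands in every comparison, list members with large mean CPM, the names next to miR-22-3p in share, and the names with the highest and lowest rho. Rarer list members that were called, such as miR-133a-5p and miR-212-3p, were also named. At 21 days miR-199a-5p, with 688.6 CPM on average, was named and was called. Left out was miR-195a-5p, with 862.3 CPM, which was not called in MI P7 against sham P7. Depth limits miR-22-5p at 3 days, where 1 read equals 0.0932 to 1.26 CPM.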

Additional observations from a re-analysis of the deposited data

How the results depend on the processing

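Of 680 alternative values of 40 results (20 log2 fold changes and 20 differences of ratios), 587 kept their direction and side of the threshold, 28 passed it newly, 6 no longer passed it and 59 changed sign; the cause was not tested. Here fold changes are judged by adjusted p and ratios by unadjusted p, under which 2 ratio results passed; the 6 belong to these, and no ratio passed after adjustment. In the following, the values are log2 fold changes or log2 ratio differences, and ratio p-values are exact permutation p without adjustment. Scaling to the total count shifted the median of all names from 0.03 to 0.38 in MI P7 against sham P7 at 21 days and gave sign changes of miR-22-3p to -0.0397 (MI against sham, P1, 21 days), 0.0802 (difference of the MI effects, 3 days), -0.18 (sham P7 against sham P1, 3 days) and -0.10 (MI P7 against MI P1, 3 days), and of miR-22-5p to 0.30 (MI against sham, P7, 3 days) and 0.28 (difference of the MI effects, 21 days). For MI P7 against MI P1 at 3 days, miR-22-3p was -0.17 with DESeq2 size factors, -0.17 with the DESeq2 Wald test and -0.63 with no filter; with no filter it was -0.27 for sham P7 against sham P1. Limma-voom gave 0.17 for miR-22-5p in MI against sham at P7 and 3 days, and a lane term gave -0.0609 for miR-22-3p in MI against sham at P1 and 21 days.

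For miR-22-3p in MI P7 against sham P7 at 21 days, -0.76 (no filter), -0.78 (DESeq2 Wald test), -0.91 (limma-voom) and -0.83 (lane term) passed the threshold. For miR-22-5p in MI P7 against MI P1 at 3 days, the values that passed were -2.21 (DESeq2 size factors), -2.14 (total count), -2.64 (no filter), -2.22 (DESeq2 Wald test), -2.14 (limma-voom), -1.73 (only the compared groups), -1.87 (without code 1103) and -1.84 (without code 1078). A filter of 10 CPM removed miR-22-5p at 3 days, and the fit of only the compared groups removed it at P7.

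Without the code 1103 libraries at 3 days, miR-22-3p was -0.00517 for MI against sham at P1, 0.35 for the difference of the MI effects and -0.18 for sham P7 against sham P1; miR-22-5p was -1.37 for that same sham comparison and passed. The cardiac ratio turned to 0.75 for MI against sham at P1 and to 0.48 for sham P7 against sham P1. Without code 1078, miR-22-5p was 3.28 for MI against sham at P1 and -3.49 for the difference of the MI effects, both past the threshold, and 1.65 for sham P7 against sham P1. The strand ratio was 3.23 (p = 0.0314, permutation) for the difference of the MI effects and -1.13 for sham P7 against sham P1, and the cardiac ratio was 2.35 (p = 0.00286, permutation) for the difference of the MI effects. With miR-133a-3p alone, the cardiac ratio turned at 3 days to 1.69 (MI against sham, P1), -1.43 (MI P7 against MI P1) and -0.54 (difference), and at 21 days to 0.13 (MI against sham, P7), 0.20 (MI P7 against MI P1) and 0.0695 (difference).

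Leaving out 1 library at a time gave these ranges where a sign or call changed. At 3 days miR-22-3p ran from -0.12 to 0.33 (MI P7 against MI P1), -0.33 to 0.30 (difference) and -0.30 to 0.35 (sham P7 against sham P1); miR-22-5p from -2.23 to -1.53 (MI P7 against MI P1), -0.60 to 0.30 (MI against sham, P7) and -1.09 to 0.19 (sham P7 against sham P1). The strand ratio ran from 1.696 to 2.48 (MI P7 against MI P1), -2.24 to -0.97 (MI against sham, P1), -0.24 to 0.78 (MI against sham, P7) and -0.39 to 0.88 (sham P7 against sham P1). The cardiac ratio ran from 0.60 to 0.85 (MI P7 against MI P1), -0.78 to 0.16 (MI against sham, P1), 0.87 to 1.31 (MI against sham, P7) and 0.85 to 1.79 (difference). At 21 days miR-22-3p ran from -1.05 to -0.42 (MI against sham, P7), -0.84 to -0.20 (MI P7 against MI P1) and -1.20 to -0.58 (difference); miR-22-5p from -0.21 to 0.48 (MI against sham, P7), -0.0234 to 0.56 (MI P7 against MI P1) and -0.63 to 0.0596 (difference). The strand ratio ran from -1.19 to 0.0203 (difference), and the cardiac ratio from -0.80 to 0.29 (MI against sham, P7), -0.83 to 0.25 (MI P7 against MI P1) and -1.10 to -0.0222 (difference).

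A paired fit with the title number as a replicate block at 21 days gave miR-22-3p in MI P7 against sham P7 as -0.85 with an edgeR adjusted p of 0.0697, and 85 names called, against 132 without the block. It turned the miR-22-5p difference of the MI effects to 0.0454. Over 15 same-number pairs the correlation of deviations was -0.37 to 0.37, and 3 were over 0.1. These values did not show a pairing by number, which was not tested. Counts of called names depended on settings: MI against sham at P1 gave 0 to 348 at 3 days (82 as reported) and 0 to 12 at 21 days (3), MI against sham at P7 8 to 93 (25) and 29 to 167 (132), sham P7 against sham P1 0 to 352 (98) and 0 to 29 (0), MI P7 against MI P1 233 to 370 (279) and 20 to 122 (81), and the difference 0 to 301 (0) and 0 to 137 (59). Restricting to lane 3, and adding 1 in place of 0.5 to the strand counts, were chosen after seeing the data.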
